A study of Homo sapiens with 4 samples.

Results

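The box C/D, H/ACA and Cajal body RNAs described here are the names starting with SNORD, SNORA or SCARNA and a number whose mean level over the 4 libraries reached 5 RPKM (reads per kilobase of listed exon, scaled to the assigned reads of the library). This level chose 188 members from 39306 listed names, out of 332 names of the pattern. They comprise 106 SNORD, 66 SNORA and 16 SCARNA names. Because the mean over both groups made the choice, the levels are a description, and 12 members (9 SNORD, 2 SNORA and 1 SCARNA) had 1 group under 5 RPKM.

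Small nucleolar RNAs of the box C/D class (SNORD) pair with ribosomal or spliceosomal RNA and direct 2'-O-methylation by fibrillarin, whereas the box H/ACA class (SNORA) directs pseudouridylation by dyskerin. Small Cajal body RNAs (SCARNA) carry one or both kinds of domain and guide the same changes in spliceosomal RNAs. Most human members are not transcribed on their own. They lie in introns of host genes, many of which encode ribosomal proteins or are the non-coding SNHG genes, and are trimmed from the spliced-out intron by exonucleases that stop at the bound proteins.

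The study compared MHCC97H, an established human hepatocellular carcinoma line, as wild type (control, 2 libraries) and with HNRNPM, a nuclear RNA-binding splicing regulator, knocked down by a short hairpin RNA (2 libraries). The labels name no control hairpin for the wild-type cells, do not say whether the knockdown cells were 1 clone and do not tie the replicates to separate cultures, so every p-value below reflects the spread between libraries that may be technical repeats. Loss of HNRNPM, hairpin delivery and off-target silencing cannot be told apart. Total RNA was depleted of ribosomal RNA, and library products of 200 to 500 base pairs were kept. The control libraries held 18317579 and 19659106 assigned reads, and the knockdown libraries 12708165 and 11498663. HNRNPM itself was at 51.3 and 51.6 RPKM in the controls and 21.8 and 20.4 RPKM in the knockdown libraries (log2 fold change -1.35 ± 0.07, SE; limma adjusted p = 0.00270). The epithelial keratin genes KRT8 and KRT18 were at 278 to 672 RPKM, the hepatocyte genes ALB and SERPINA1 at 1.75 to 6.28 RPKM, and AFP, APOA1, TTR and EPCAM under 1 RPKM in every library. The leukocyte gene PTPRC was listed at 0 in 3 libraries, and the endothelial gene PECAM1 was at 5.83 to 9.01 RPKM. ALB and PECAM1 were called lower in the knockdown libraries (log2 fold changes -1.72 and -0.63 by limma), and KRT18 and the fibroblast gene COL1A1 higher (0.47 and 0.84), the latter at 0.0259 to 0.133 RPKM. Their part, and that of the lower depth of the knockdown libraries, in the results below was not tested. In bulk RNA, fewer cells with an RNA and less of it per cell cannot be told apart.

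The sequences below are those of SNORD68, of close relatives compared further below, and of the Cajal body RNAs SCARNA8 and SCARNA12. They are GENCODE release 29 transcripts (GRCh38) with the same coordinates as the deposited tables, written as DNA in the direction of the RNA. Capitals mark TGATGA in the first 20 bases (box C) and CTGA in the last 20 (box D) of SNORD names. In SNORA and SCARNA names they mark ACA in the last 10 bases, and in SCARNA names also TGAG, the 4 letters common to Cajal body localisation elements. Only the RNA strand was searched. SNORD68 lies at chr16:89561434-89561517 (plus strand) within RPL13 and showed the largest increase among the members that passed the test.
SNORD68: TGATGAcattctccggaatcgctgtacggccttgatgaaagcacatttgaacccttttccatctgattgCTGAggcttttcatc
SNORD14D at chr11:123058909-123058995 (minus strand) and SNORD14C at chr11:123059335-123059422 (minus strand) both lie in HSPA8 and are 78.4% identical.
SNORD14D: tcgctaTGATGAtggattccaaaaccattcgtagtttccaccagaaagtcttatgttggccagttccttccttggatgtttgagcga
SNORD14C: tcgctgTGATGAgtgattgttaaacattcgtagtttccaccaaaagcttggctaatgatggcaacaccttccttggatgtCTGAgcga
SNORD45A at chr1:75787889-75787972 (plus strand), SNORD45B at chr1:75789477-75789548 (plus strand) and SNORD45C at chr1:75787072-75787150 (plus strand) lie in RABGGTB, and SNORD45C is 84.5% identical to SNORD45A and 74.7% identical to SNORD45B.
SNORD45A: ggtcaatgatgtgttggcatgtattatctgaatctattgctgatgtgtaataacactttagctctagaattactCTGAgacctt
SNORD45B: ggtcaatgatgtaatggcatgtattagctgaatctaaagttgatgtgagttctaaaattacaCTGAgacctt
SNORD45C: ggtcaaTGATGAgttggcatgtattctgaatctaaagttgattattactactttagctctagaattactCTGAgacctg
SNORD116-9 at chr15:25073107-25073201 (plus strand), SNORD116-18 at chr15:25085385-25085476 (plus strand) and SNORD116-20 at chr15:25087662-25087753 (plus strand) belong to the imprinted chromosome 15 cluster. The latter pair is 97.8% identical, whereas SNORD116-9 is 85.3% identical to SNORD116-18.
SNORD116-9: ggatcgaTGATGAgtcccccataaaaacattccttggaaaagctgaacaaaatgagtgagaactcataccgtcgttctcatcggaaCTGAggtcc
SNORD116-18: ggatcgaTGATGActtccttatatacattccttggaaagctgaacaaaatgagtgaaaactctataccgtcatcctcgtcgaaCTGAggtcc
SNORD116-20: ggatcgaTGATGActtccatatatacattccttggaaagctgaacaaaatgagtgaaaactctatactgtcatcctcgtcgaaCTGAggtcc
SNORA71D at chr20:38433865-38433998 (minus strand) and SNORA71A at chr20:38427309-38427442 (minus strand), guides for the small ribosomal subunit, lie in SNHG17 and are 82.8% identical.
SNORA71D: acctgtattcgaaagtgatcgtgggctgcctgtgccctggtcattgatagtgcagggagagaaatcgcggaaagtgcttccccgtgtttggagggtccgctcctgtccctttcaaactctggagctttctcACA
SNORA71A: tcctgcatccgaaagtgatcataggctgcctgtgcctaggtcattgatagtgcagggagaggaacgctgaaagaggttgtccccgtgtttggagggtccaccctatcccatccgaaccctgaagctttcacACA
SCARNA8 at chr9:19063656-19063786 (minus strand) is a short H/ACA-type Cajal body RNA, and SCARNA12 at chr12:6967337-6967606 (minus strand) combines both domains.
SCARNA8: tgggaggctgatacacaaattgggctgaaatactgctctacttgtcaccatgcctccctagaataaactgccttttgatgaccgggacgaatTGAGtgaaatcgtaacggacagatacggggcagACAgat
SCARNA12: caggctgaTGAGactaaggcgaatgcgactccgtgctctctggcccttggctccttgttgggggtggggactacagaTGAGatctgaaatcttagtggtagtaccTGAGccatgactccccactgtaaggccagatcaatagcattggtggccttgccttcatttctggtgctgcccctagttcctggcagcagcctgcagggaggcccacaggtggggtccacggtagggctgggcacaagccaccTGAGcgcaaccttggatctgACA

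The 3 classes differed in the direction of their members. Of the 16 SCARNA members tested, 10 fell and 0 rose in the knockdown libraries, of 66 SNORA members 19 fell and 3 rose, and of 93 SNORD members 15 fell and 17 rose (limma, adjusted p under 0.05 over 20221 genes). Among all genes tested, 24.9% were called, 11.1% higher and 13.8% lower. The median log2 fold change was -0.61 for SCARNA, -0.24 for SNORA and -0.02 for SNORD names, beside -0.03 for all tested genes (quartiles -0.31 to 0.24). Without scaling factors the SNORD median was 0.04, on the other side of 0. All 16 tested SCARNA fold changes were negative (SCARNA21, at -0.01, turned to 0.06 without scaling factors), as were 54 of 66 SNORA and 49 of 93 SNORD fold changes. No test between classes was made.

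Called members made up 34.4% of SNORD (18.3% higher and 16.1% lower), 33.3% of SNORA (4.55% higher and 28.8% lower) and 62.5% of SCARNA names tested, the last all lower. Without scaling factors the calls over all genes turned from 2240 higher and 2792 lower to 2783 higher and 2234 lower, and those of the members from 20 and 44 to 23 and 36. At an unadjusted p under 0.05, 0 SCARNA members were higher and 13 lower, and limma-voom on the recovered reads called 0 higher and 12 lower. Among all tested genes, 18.5% were higher and 22.3% lower at that unadjusted p, and limma-voom called 16.2% higher and 19.6% lower. Both knockdown libraries lay above both controls for 41 of the 175 tested members and below them for 69, so that 110 did not overlap, beside 36.2%, 31.4% and together 67.6% of all tested genes. The corresponding counts were 31 and 24 for SNORD, 10 and 31 for SNORA, and 0 and 14 for SCARNA names. Left-out libraries moved the counts, for the members and for all genes. Without knockdown replicate 1 the members called were 5 higher and 28 lower, beside 8.47% of all tested genes called in either direction. Without knockdown replicate 2 they were 14 and 21, beside 10.9%. Without control replicate 1 they were 11 and 33, beside 15.9%, and without control replicate 2 they were 19 and 33, beside 13.2%. Calls were kept in all 4 of these fits for 13 of 64 members: SNORD68, SNORD14D and SNORD116-9 among those higher, and SCARNA8, SCARNA16, SNORA48, SNORA56, SNORA57, SNORD15B, SNORD35B, SNORD45C, SNORD96A and SNORD116-20 among those lower. SCARNA8, SNORA56, SNORD45C, SNORD116-17 and SNORD116-20 met the read and level minimums through the controls alone. With knockdown levels under those minimums, their changes could only be decreases. Without members of this kind the calls were 20 higher and 39 lower (9 SCARNA, 18 SNORA and 12 SNORD names lower).

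**Figure D1:**
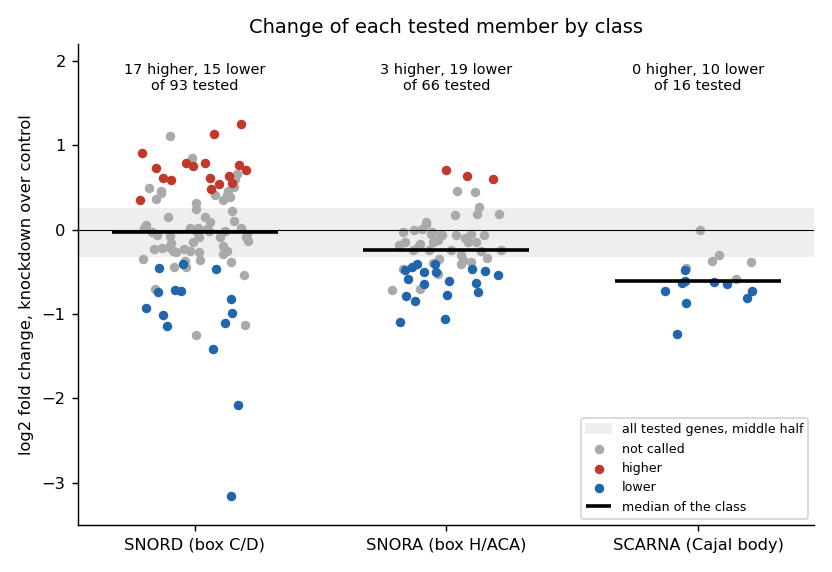
Log2 fold change (knockdown over control, vertical axis) of the 175 tested members by class. Points are members, coloured by limma call, bars are class medians, and the grey band is the middle 50% of all tested genes. SCARNA points lie at or below 0, with a median of -0.61 (SCARNA21, at -0.01, turns to 0.06 without scaling factors), while SNORD points lie on both sides of 0.

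The reads of the members were a small part of each library. Summed over the members, SNORD names took 0.399% and 0.379% of assigned reads in the controls, and 0.331% and 0.302% after knockdown. SNORA names took 0.106% and 0.0979% against 0.0893% and 0.0779%, and SCARNA names 0.0602% and 0.0634% against 0.0454% and 0.0421%. In each class both knockdown libraries lay below both controls, where a two-sided exact permutation test of 2 libraries against 2 cannot go below p = 0.333. Most SNORD reads were those of U3, and without the 5 U3 names the SNORD shares were 0.0740% and 0.0694% against 0.0708% and 0.0602%, which overlap. A read over more than 1 listed name can count for each. As 1 example, SNORA50 held 176, 198, 105 and 83 reads in control 1, control 2, knockdown 1 and knockdown 2, and SNORA50C, which lies within it, 170, 189, 100 and 81.

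Cajal body RNAs were the class with 1 direction. SCARNA10, a guide for the U5 spliceosomal RNA with both kinds of domain, was the most abundant, at 385 and 469 RPKM in the controls and 263 and 243 RPKM in the knockdown libraries, and fell with a log2 fold change -0.81 ± 0.12 (SE; limma adjusted p = 0.0107). SCARNA12, another U5 guide of that build, was at 308 and 297 RPKM in the controls and 208 and 208 RPKM in the knockdown libraries, which gave -0.60 ± 0.07 on the log2 scale (SE; limma adjusted p = 0.00650). For each of these RNAs both knockdown libraries lay below both controls. SCARNA13 fell from 164 ± 13.2 to 111 ± 0.208 RPKM (SD, n = 2 each) and SCARNA5 from 108 ± 6.87 to 68.3 ± 5.46 RPKM (SD, n = 2 each). SCARNA7, a guide for the U1 RNA, was at 177 and 169 RPKM in the controls and 142 and 119 RPKM in the knockdown libraries (log2 fold change -0.47, limma adjusted p = 0.0247). It lost its call in each fit without 1 library, with adjusted p between 0.0657 and 0.150.

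The largest decrease of the class was at its lowest level. SCARNA8, a guide for the U2 RNA, was at 7.08 and 7.38 RPKM in the controls and 3.003 and 3.32 RPKM in the knockdown libraries, from 17 and 19 reads against 5 and 5, with a log2 fold change -1.23 ± 0.11 (SE; limma adjusted p = 0.00415). As it met the minimums through the controls alone, with knockdown levels under them, its change could only be a decrease. From summed reads alone its knockdown level was 43.6% of control, with an exact 95% counting interval of 19.3% to 89.6% that covers counting error only. SCARNA16, listed at 6 loci, was at 41.1 and 37.7 RPKM in the controls and 23.3 and 21.8 RPKM in the knockdown libraries (-0.86 ± 0.07 on the log2 scale (SE; limma adjusted p = 0.00415)). SCARNA1 was at 13.2 and 10.7 RPKM in the controls and 7.58 and 7.33 RPKM in the knockdown libraries and SCARNA9, a methylation guide for U2, at 29.4 and 34.6 RPKM in the controls and 22.1 and 20.4 RPKM in the knockdown libraries. Their log2 fold changes were -0.73 and -0.65, and that of SCARNA6, listed at 2 loci, was -0.63 (limma adjusted p = 0.0111, 0.0119 and 0.0111).

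The other 6 SCARNA members did not pass the test. SCARNA22 was at 27.95 and 24.8 RPKM in the controls and 23.9 and 13.9 RPKM in the knockdown libraries, so that a single low library carried much of its log2 fold change of -0.59, which passed without knockdown replicate 1 (-0.95, limma adjusted p = 0.0283). SCARNA4, SCARNA17, SCARNA2 and SCARNA18 had log2 fold changes of -0.45, -0.39, -0.37 and -0.30 (limma adjusted p = 0.0616, 0.102, 0.0807 and 0.174). Of these, SCARNA4 passed without knockdown replicate 2 (-0.67, adjusted p = 0.0376 by limma) and SCARNA17 without control replicate 1 (-0.60, adjusted p = 0.0214 by limma). SCARNA21, a guide for the U12 RNA of the minor spliceosome, was at 68.2 and 65.8 RPKM in the controls and 73.5 and 66.2 RPKM in the knockdown libraries, with overlapping groups and a log2 fold change of -0.01 that turned to 0.06 without scaling factors and 0.02 with median-of-ratios factors. Without knockdown replicate 1, 4 SCARNA members were called lower, and 5 without knockdown replicate 2. SCARNA10, SCARNA12 and SCARNA13 then had limma adjusted p of 0.0581, 0.0818 and 0.0715 without knockdown replicate 1 and 0.0621, 0.0633 and 0.0546 without knockdown replicate 2.

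Among H/ACA RNAs the SNORA73 pair, the U17 RNA needed for early cleavage of the ribosomal precursor rather than for modification, was the most abundant. SNORA73B was at 1159.5 and 1061 RPKM in the controls and 820.5 and 703 RPKM in the knockdown libraries, and SNORA73A, 93.2% identical to it, at 527 and 488 RPKM in the controls and 336 and 287 RPKM in the knockdown libraries. Both fell, with log2 fold changes of -0.61 ± 0.12 and -0.77 ± 0.11 (SE; limma adjusted p = 0.0231 and 0.00832). Their shared host SNHG3 was lower as well, at -0.67 (limma adjusted p = 0.00856). Reads of such near-identical pairs could be split between them by the counting. SNORA23, a guide for the large subunit, fell from 337 ± 29.7 to 243 ± 22.6 RPKM (SD, n = 2 each). SNORA7A and SNORA61, guides for the large subunit, were not called. SNORA7A was at 408 and 364 RPKM in the controls and 399 and 381 RPKM in the knockdown libraries with overlapping groups, and its log2 fold change of -0.05 became 0.02 without scaling factors. SNORA61 was at 209 and 236 RPKM in the controls and 206 and 196 RPKM in the knockdown libraries (-0.21 ± 0.09 on the log2 scale (SE; limma adjusted p = 0.156)), and passed without control replicate 1 (-0.30, limma adjusted p = 0.0489). The calls of SNORA73B and SNORA23 were lost without knockdown replicate 1 (limma adjusted p = 0.124 and 0.0933) and without knockdown replicate 2 (0.202 and 0.147). That of SNORA73A was lost in the same fits (0.0507 and 0.0740).

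The 3 SNORA members that rose were SNORA71D (the most abundant of them), SNORA14B and SNORA6, of which the latter pair was named after values were seen. SNORA14B, within TOMM20, rose from 24.1 ± 2.66 to 41.4 ± 6.60 RPKM (SD, n = 2 each) and SNORA6, within RPSA, from 7.83 ± 0.842 to 12.8 ± 1.80 RPKM (SD, n = 2 each). Neither call was kept in every fit without 1 library, where the log2 fold changes ran from 0.57 to 0.84 for SNORA14B and from 0.52 to 0.75 for SNORA6. The largest SNORA decreases, also named after values were seen, were those of SNORA56 within DKC1, the gene of dyskerin, and SNORA59A within VPS13D. SNORA56 was at 9.73 and 8.67 RPKM in the controls and 4.88 and 4.04 RPKM in the knockdown libraries, with 6 to 23 reads per library (-1.09 ± 0.12 on the log2 scale (SE; limma adjusted p = 0.00571)), and met the minimums through the controls alone, while DKC1 was at 29.98 and 28.998 RPKM in the controls and 32.6 and 30.4 RPKM in the knockdown libraries and was not called. SNORA59A was at 12.9 and 10.04 RPKM in the controls and 4.66 and 6.87 RPKM in the knockdown libraries (-1.06 ± 0.21 on the log2 scale (SE; limma adjusted p = 0.0222)). Its call was not kept in every fit without 1 library, where its log2 fold change ran from -1.36 to -0.76.

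Box C/D RNAs held the most abundant members, led by U3 (the SNORD3 names), which is transcribed from promoters of its own and is required for early cleavages of the ribosomal precursor. SNORD3D was at 11686 and 10564 RPKM in the controls and 7339 and 6873 RPKM in the knockdown libraries, a higher level in both controls than in both knockdown libraries. It did not pass the test, at -0.71 ± 0.26 on the log2 scale (SE; limma adjusted p = 0.104). SNORD3C lay the other way, at 897 and 1037 RPKM in the controls and 1442 and 1292 RPKM in the knockdown libraries (0.44 ± 0.14 on the log2 scale (SE; limma adjusted p = 0.0694)). The ratio of their levels per length, SNORD3C over SNORD3D, was 0.0767 and 0.0982 for the controls, against 0.197 and 0.188 for the knockdown libraries. U3 loci are near-identical copies, so reads could be assigned to one or the other, and SNORD3D shares bases with listed exons of a gene that carries only a clone name and was called lower (-0.71 on the log2 scale, limma adjusted p = 0.0340). SNORD3A was at 177 and 179 RPKM in the controls and 155 and 162 RPKM in the knockdown libraries, while SNORD3B-1 and SNORD3B-2 had log2 fold changes of -0.22 and 0.02, and none of these 3 was called. SNORD3B-1 passed without control replicate 1 (-0.35, limma adjusted p = 0.0497). Summed over the 5 names, U3 took 0.325% and 0.309% of the assigned reads in the controls, against 0.261% and 0.242% after knockdown, a level of 79.3% of control. Without control replicate 2, SNORD3D passed at -0.77 and SNORD3C at 0.55 (limma adjusted p = 0.0480 and 0.0411).

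U8 and U13, box C/D RNAs that are likewise transcribed from promoters of their own, were not called. SNORD118, the U8 RNA needed for large-subunit RNA processing, was at 91.7 and 100.2 RPKM in the controls and 117 and 106 RPKM in the knockdown libraries (log2 fold change 0.15, limma adjusted p = 0.230). SNORD13, the U13 RNA that assists acetylation of small-subunit RNA, was at 26.8 and 33.7 RPKM in the controls and 45.4 and 33.4 RPKM in the knockdown libraries (0.31 ± 0.18 on the log2 scale (SE; limma adjusted p = 0.244)). Its groups overlapped, those of SNORD118 did not. Neither test shows that these RNAs stayed level: the 95% interval of the log2 fold change ran from -0.06 to 0.37 for SNORD118 and from -0.13 to 0.75 for SNORD13.

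Of the next most abundant SNORD names, SNORD10 and SNORD17 fell and SNORD41 rose. SNORD10, a guide for the U6 RNA (chr17:7576811-7576952 (plus strand)), was at 1313 and 901 RPKM in the controls and 574 and 489 RPKM in the knockdown libraries (-1.10 ± 0.20 on the log2 scale (SE; limma adjusted p = 0.0160)). The controls differed from each other by more than the knockdown libraries did, yet both lay above them. It lies within EIF4A1 and shares bases with a listed exon of that gene. The read-through gene SENP3-EIF4A1, which spans it, had a log2 fold change of -0.23 and was not called. SNORD17, a guide for the large subunit within SNX5, was at 594 and 542 RPKM in the controls and 398 and 320.3 RPKM in the knockdown libraries (-0.73 ± 0.13 on the log2 scale (SE; limma adjusted p = 0.0150)). SNORD41, listed at 2 loci, was at 161 and 217 RPKM in the controls and 360.0 and 305 RPKM in the knockdown libraries (0.76 ± 0.17 on the log2 scale (SE; limma adjusted p = 0.0277)), and SNORD1C, within SNHG16, was at 232 and 292 RPKM in the controls and 390.4 and 357 RPKM in the knockdown libraries without passing (0.46 ± 0.13 on the log2 scale (SE; limma adjusted p = 0.0577)). The calls of SNORD10, SNORD17 and SNORD41 were lost without knockdown replicate 1 (limma adjusted p = 0.0693, 0.0541 and 0.109) and without knockdown replicate 2 (0.0908, 0.107 and 0.0627), and SNORD1C passed without control replicate 2 (0.63, limma adjusted p = 0.0240).

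**Figure D2:**
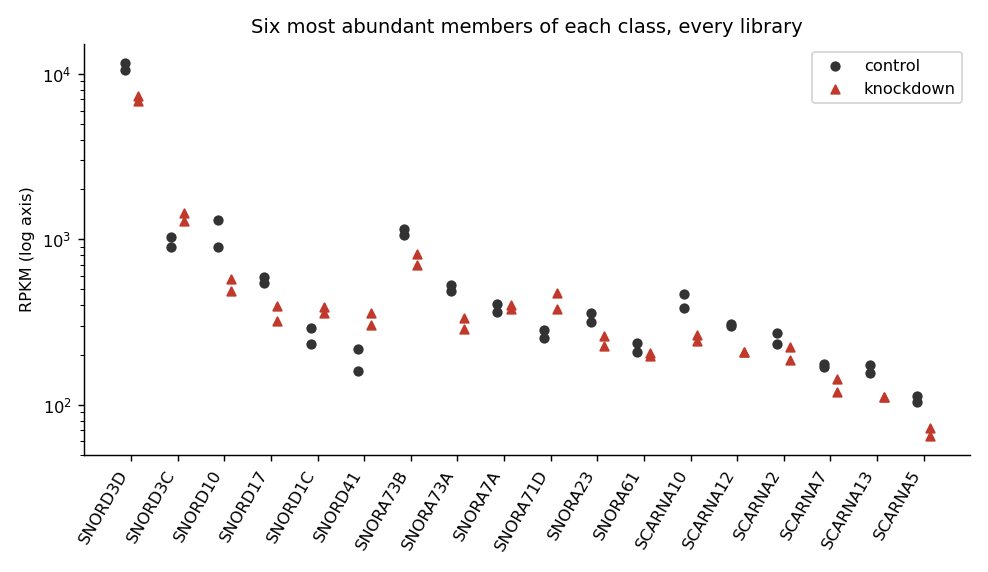
RPKM (log axis) of the 6 most abundant members of each class in every library, circles for controls and triangles for knockdown libraries. SNORD3D stands between 6873 and 11686 RPKM, and of the 6 SCARNA names shown the knockdown libraries lie below the controls in each.

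SNORD68, a guide for methylation of ribosomal RNA, showed the largest increase. It was at 105 and 107 RPKM in the controls and 278 and 251 RPKM in the knockdown libraries, from 161 and 177 reads against 297 and 242, and its knockdown level was 238% of control (log2 fold change 1.25 ± 0.08 (SE; limma adjusted p = 0.00314)). Its host, the ribosomal protein gene RPL13, rose by less, with a log2 fold change of 0.44 (limma adjusted p = 0.0111). SNORD14D, a copy of U14, which takes part in precursor cleavage and methylation, was at 113 and 124 RPKM in the controls and 301 and 246 RPKM in the knockdown libraries (1.14 ± 0.12 on the log2 scale (SE; limma adjusted p = 0.00521)). In both RNAs the lower knockdown library stood well above the higher control. SNORD89, an RNA without a known target, was at 18.7 and 13.8 RPKM in the controls and 31.1 and 27.5 RPKM in the knockdown libraries and SNORD62B at 8.89 and 8.87 RPKM in the controls and 18.3 and 14.2 RPKM in the knockdown libraries (0.79 ± 0.15 on the log2 scale (SE; limma adjusted p = 0.0182) and 0.79 ± 0.13 on the log2 scale (SE; limma adjusted p = 0.0125)). The call of SNORD89 was lost without either knockdown library (limma adjusted p = 0.0823 without replicate 1 and 0.0555 without replicate 2), and that of SNORD62B without either control (0.0508 without replicate 1 and 0.0535 without replicate 2). The host of SNORD89, RNF149, was lower, at -0.43 (limma adjusted p = 0.0396).

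The SNORD names with the largest fold decreases, other than SNORD10, were scarce. SNORD45C, a guide for the small subunit, was at 17.3 and 15.5 RPKM in the controls and 2.99 and 1.10 RPKM in the knockdown libraries, from 25 and 24 reads against 3 and 1 (log2 fold change -3.16 ± 0.42 (SE; limma adjusted p = 0.00758)). By reads its knockdown level was 12.8% of control, with an exact 95% counting interval of 3.36% to 34.9%. SNORD116-20 was at 10.7 and 10.5 RPKM in the controls and 3.42 and 1.89 RPKM in the knockdown libraries, from 18 and 19 reads against 4 and 2 (-2.08 ± 0.26 on the log2 scale (SE; limma adjusted p = 0.00677)), which by reads is 25.4% of control (8.78% to 60.8%). It lies in an exon of a non-coding gene with a clone name only, which was called lower (-1.64, limma adjusted p = 0.00842). SNORD45C and SNORD116-20 had fewer than 5 reads in each knockdown library and met the minimums through the controls alone, so their decreases are given as a description. SNORD35B, a guide for the large subunit, was at 16.3 and 18.1 RPKM in the controls and 7.24 and 8.997 RPKM in the knockdown libraries (-1.15 ± 0.13 on the log2 scale (SE; limma adjusted p = 0.00594)), by reads 46.8% of control (25.5% to 81.6%).

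The other called members, named after their values were seen, changed less. SNORD56 (7 loci), SNORD53_SNORD92, SNORD108, SNORD87 and SNORD60 (3 loci) rose by 0.35 to 0.76 on the log2 scale. SNORD55 rose from 65.9 ± 1.43 to 100.2 ± 0.225 RPKM (SD, n = 2 each), with a log2 fold change of 0.54. SNORA74A, SNORD30, SNORA48, SNORA84, SNORD96A, SNORA57, SNORA18, SNORA5A, SNORA2C, SNORA74B, SNORA21, SNORA64, SNORD22, SNORA63, SNORA50 and SNORA50C fell, with log2 fold changes from -0.85 to -0.41. Several of these names merge loci: SNORA48 is listed at 13, SNORA63 at 11, SNORA18 at 8, SNORA64 at 6 and SNORA57 at 4. SNORA50 is listed at 3 loci, and SNORA21, SNORD22 and SNORD30 at 2 each. SNORA2C was at 211 and 206 RPKM in the controls and 164 and 145 RPKM in the knockdown libraries and holds the hairpin of MIR1291, whose listed 518, 533, 276 and 216 reads in the 4 libraries lie within its own 529, 555, 286 and 228.

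RNAs from 1 host gene did not all pass the test in 1 direction, and their ratios are given per library without a test. In HSPA8, the gene of a constitutive heat shock chaperone, SNORD14D rose while SNORD14C was at 90.6 and 78.03 RPKM in the controls and 76.01 and 55.3 RPKM in the knockdown libraries and SNORD14E at 14.1 and 12.6 RPKM in the controls and 16.7 and 8.19 RPKM in the knockdown libraries, neither called, though SNORD14E passed without knockdown replicate 1 (-0.73, limma adjusted p = 0.0417). The per-length ratio of SNORD14D to SNORD14C was 1.25 and 1.59 for the controls, against 3.96 and 4.44 for the knockdown libraries. HSPA8 itself was at 214 and 182 RPKM in the controls and 167 and 156 RPKM in the knockdown libraries (log2 fold change -0.35, limma adjusted p = 0.0507). Both SNORD14 RNAs share bases with listed HSPA8 exons, so reads of unspliced or intron-retaining HSPA8 RNA may count for them too. That HSPA8, RPL13A, RABGGTB and ZFAS1 are described was chosen after values were seen, and the hosts SNHG14, SNHG17, RPL7A and SNHG12 follow from the number of members they hold.

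In SNHG17, a non-coding host of H/ACA RNAs, SNORA71D was at 282 and 253 RPKM in the controls and 474 and 378 RPKM in the knockdown libraries (0.60 ± 0.13 on the log2 scale (SE; limma adjusted p = 0.0259)). SNORA71A was at 37.5 and 36.1 RPKM in the controls and 29.4 and 18.8 RPKM in the knockdown libraries (-0.71 ± 0.20 on the log2 scale (SE; limma adjusted p = 0.0519)) and SNORA71C at 30.1 and 20.9 RPKM in the controls and 15.9 and 17.5 RPKM in the knockdown libraries (-0.65 ± 0.17 on the log2 scale (SE; limma adjusted p = 0.0453)), while SNORA71B was at 12.8 and 13.1 RPKM in the controls and 17.4 and 13.7 RPKM in the knockdown libraries without a call. SNORA71D was thus 7.52 and 7.02 times SNORA71A in the controls and 16.1 and 20.1 times in the knockdown libraries. The host was at 7.79 and 7.81 RPKM in the controls and 5.47 and 5.21 RPKM in the knockdown libraries and fell (-0.60 on the log2 scale, limma adjusted p = 0.00892). SNORA71A passed without knockdown replicate 1 (-0.999, limma adjusted p = 0.0231). The increase of SNORA71D was not called in any fit without 1 library, where its log2 fold change ran from 0.46 to 0.73 (limma adjusted p from 0.0526 to 0.151).

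Within RPL13A, a ribosomal protein gene that was at 274 and 266 RPKM in the controls and 381 and 378 RPKM in the knockdown libraries, SNORD34 and SNORD35A moved apart. SNORD34 was at 92.3 and 101 RPKM in the controls and 175 and 139.6 RPKM in the knockdown libraries (0.63 ± 0.12 on the log2 scale (SE; limma adjusted p = 0.0201)) and SNORD35A at 74.3 and 69.8 RPKM in the controls and 51.2 and 27.3 RPKM in the knockdown libraries (-1.01 ± 0.27 on the log2 scale (SE; limma adjusted p = 0.0489)). Their ratio per length was 1.24 and 1.45 for the controls, against 3.42 and 5.11 for the knockdown libraries. SNORD32A was at 103 and 105 RPKM in the controls and 132 and 123 RPKM in the knockdown libraries and was not called, and SNORD33, listed at 2 loci, rose with 0.61 on the log2 scale (limma adjusted p = 0.0130). SNORD34 lost its call without control replicate 1 (limma adjusted p = 0.0727), control replicate 2 (0.0504) and knockdown replicate 1 (0.0827), and SNORD35A without either control (0.160 without replicate 1 and 0.146 without replicate 2). Without knockdown replicate 2 the decrease of SNORD35A was -0.58.

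In RABGGTB the SNORD45 trio had log2 fold changes of both signs, of which that of SNORD45B was not called. SNORD45A was at 24.7 and 20.6 RPKM in the controls and 17.8 and 17.6 RPKM in the knockdown libraries (-0.41 ± 0.10 on the log2 scale (SE; limma adjusted p = 0.0345)) and SNORD45B at 21.2 and 28.3 RPKM in the controls and 36.1 and 30.2 RPKM in the knockdown libraries (0.37 ± 0.16 on the log2 scale (SE; limma adjusted p = 0.149)), beside the decrease of SNORD45C given above. The ratio of SNORD45B to SNORD45C went from 1.23 and 1.83 for the controls to 12.1 and 27.4 for the knockdown libraries, and RABGGTB itself was not called (-0.33, limma adjusted p = 0.0597). In the knockdown libraries that ratio rests on 3 and 1 reads of SNORD45C, which met the minimums through the controls alone. It is therefore a description only. The trio shares bases with listed RABGGTB exons. The call of SNORD45A was lost without control replicate 1, knockdown replicate 1 and knockdown replicate 2 (limma adjusted p = 0.0643, 0.166 and 0.131).

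SNHG14, the long host of the imprinted SNORD116 copies, held 6 single-locus members. It was at 1.59 and 1.57 RPKM in the controls and 1.63 and 1.73 RPKM in the knockdown libraries, and was not called. SNORD116-9 was at 8.62 and 11.2 RPKM in the controls and 20.7 and 18.3 RPKM in the knockdown libraries and rose (0.91 ± 0.15 on the log2 scale (SE; limma adjusted p = 0.0122)), while SNORD116-18 was at 26.7 and 33.7 RPKM in the controls and 8.55 and 16.1 RPKM in the knockdown libraries and fell (-1.41 ± 0.30 on the log2 scale (SE; limma adjusted p = 0.0261)). The ratio of SNORD116-9 to SNORD116-18 was 0.323 and 0.333 for the controls, against 2.42 and 1.14 for the knockdown libraries. SNORD116-17, 98.9% identical to SNORD116-18 and a member that met the minimums through the controls alone, had -0.93 (limma adjusted p = 0.0178), and SNORD116-13 was not called (-0.35, limma adjusted p = 0.306). Summed over its 8 members, SNORD116 was at 76.6% of control from 72 to 168 reads per library, and copies this alike can exchange reads. Some of these members, such as SNORD116-17, reached a mean of 5 RPKM in the controls only, so the choice of members can itself lower the sum. SNORD116-5 reached that mean in the knockdown libraries only, which acts the other way. The sum is therefore a description of the chosen members and not the level of the whole family. SNORD116-17 and SNORD116-18 were not called without control replicate 1 (limma adjusted p = 0.0573 and 0.0676) or control replicate 2 (0.0812 and 0.115), and without knockdown replicate 1 the estimate of SNORD116-18 was -0.93.

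RPL7A was at 264 and 255 RPKM in the controls and 338 and 342 RPKM in the knockdown libraries and rose by 0.33 on the log2 scale (limma adjusted p = 0.0331). Of its 4 members SNORD24 was called higher (0.55 ± 0.14 on the log2 scale (SE; limma adjusted p = 0.0422)), from 20 to 23 reads per library, and only knockdown replicate 1 could be left out without losing that call, since the adjusted p were 0.0712, 0.155 and 0.182 without control 1, control 2 and knockdown 2. SNORD36A, SNORD36B and SNORD36C had log2 fold changes of 0.02, 0.66 and -0.26 and were not called, though SNORD36B passed without control replicate 1 (1.02, limma adjusted p = 0.0189). In SNHG12, which was not called, SNORD99 was at 101 and 94.2 RPKM in the controls and 84.01 and 64.6 RPKM in the knockdown libraries (-0.47 ± 0.13 on the log2 scale (SE; limma adjusted p = 0.0488)), SNORA61 is given above, and SNORA16A was not called at -0.14. SNORD99 passed in 1 of the fits without 1 library, that without knockdown replicate 1 (limma adjusted p = 0.0498), beside 0.153, 0.116 and 0.190 without control 1, control 2 and knockdown 2. In ZFAS1, which rose by 0.30 (limma adjusted p = 0.0331), SNORD12C was at 57.05 and 49.7 RPKM in the controls and 109 and 79.1 RPKM in the knockdown libraries and rose (0.74 ± 0.16 on the log2 scale (SE; limma adjusted p = 0.0254)). SNORD12B rose by 0.48 (limma adjusted p = 0.0114), and SNORD12 was not called at -0.29. SNORD12C was called without knockdown replicate 2 alone (0.94, limma adjusted p = 0.0276), not without control 1, control 2 or knockdown 1 (0.0617, 0.105 and 0.0802), and SNORD12B was not called without knockdown replicate 1 (0.0820).

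**Figure D3:**
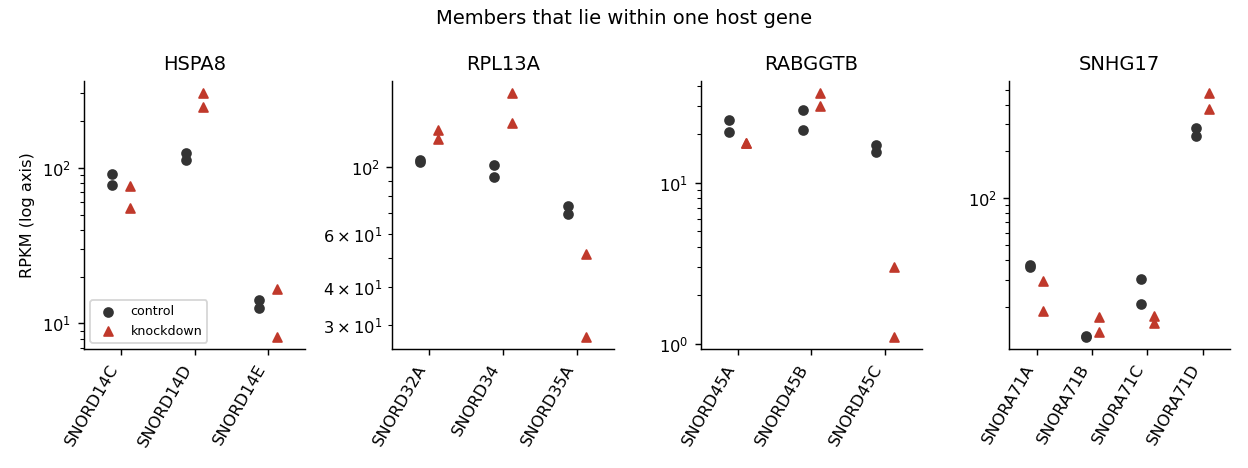
RPKM (log axis) of the members within HSPA8, RPL13A, RABGGTB and SNHG17 in every library, circles for controls and triangles for knockdown libraries. SNORD14D, SNORD34 and SNORA71D lie higher in the knockdown libraries, while SNORD35A, SNORA71A and SNORD45C of the same hosts lie lower.

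A host on the same strand was found for 143 of the 150 single-locus members, and 130 of them could be tested together with the host. Across these 130 members, which share 84 hosts, the log2 fold changes of member and host correlated with r = 0.35 (Spearman's rho 0.31). This is a description across RNAs that share libraries and hosts. For the 73 members that share a base with a listed exon of another gene, and so may share reads with it, r was 0.42, and for the other 57 it was 0.20. Of 33 members called lower, 12 had a host called lower, 3 a host called higher and 18 a host not called. Of 16 called higher, 7 had a host called higher, 2 a host called lower and 7 a host not called. Opposite cases included SNORD15B within RPS3 and SNORD35A within RPL13A, which fell in hosts that rose, and SNORA71D within SNHG17 and SNORD89 within RNF149, which rose in hosts that fell.

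Ribosomal protein hosts were mostly called higher. Of 21 such hosts, taken by name, 17 were called higher and 0 lower, with a median log2 fold change of 0.43. The 21 include the pseudogene RPL32P3 (-0.16 on the log2 scale, not called), the host of SNORA7B. Of the 38 members in the 21 hosts, 5 were called higher and 3 lower, with a median of -0.01. Among all tested genes 11.1% were called higher and 13.8% lower, so the calls of these members lay near that share. SNORD15B, a guide for the large subunit within RPS3, was at 166 and 145 RPKM in the controls and 91.6 and 73.3 RPKM in the knockdown libraries (-0.99 ± 0.12 on the log2 scale (SE; limma adjusted p = 0.00697)). RPS3 rose, with 0.43 (limma adjusted p = 0.011), and SNORD15A, its second member, was not called at -0.54, but passed without control replicate 1 (-0.84, limma adjusted p = 0.0152). Of 26 members in 12 SNHG, GAS5 or ZFAS1 hosts, 5 rose and 8 fell (median -0.32, hosts 2 and 4, median -0.20). Of the 66 members in 51 other hosts, 6 rose and 22 fell (median -0.18, hosts 1 and 17, median -0.20).

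The called SCARNA members with a host lay partly in hosts that were not called and partly in hosts called lower. SCARNA8 (HAUS6), SCARNA5 (ATG16L1), SCARNA1 (PPP1R8), SCARNA7 (KPNA4) and SCARNA13 (SNHG10) fell in hosts that were not called, at -0.09, -0.07, 0.08, 0.06 and -0.28 on the log2 scale. SCARNA10 (NCAPD2), SCARNA9 (CEP295) and SCARNA12 (PHB2) fell in hosts that fell as well, at -0.62, -0.50 and -0.33. The level of SCARNA10 per length was 7.07 times that of NCAPD2, and SCARNA12 stood 3.44 times above PHB2, an exon of which it overlaps.

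**Figure D4:**
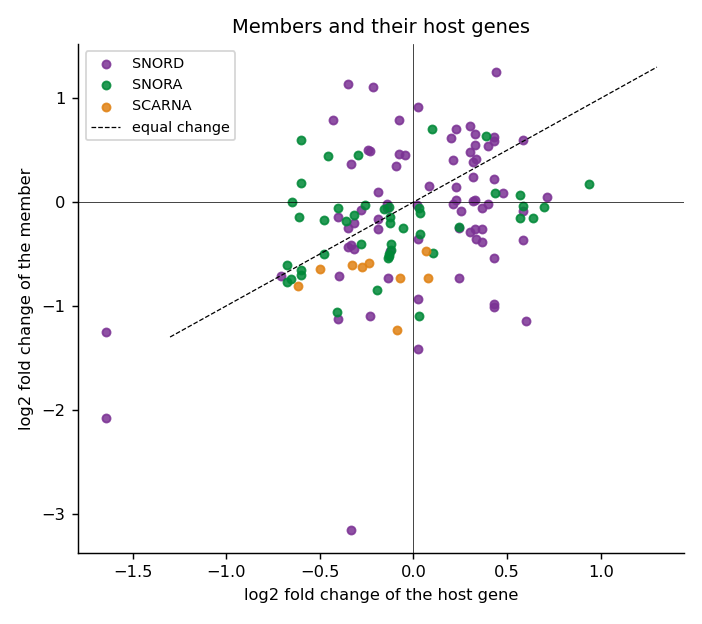
Log2 fold change of each tested member (vertical axis) against that of its host gene (horizontal axis) for 130 members, with the dashed line of equal change. Member and host values correlated with r = 0.35, which does not measure closeness to that line. Hosts to the right of 0 carry members on both sides of 0.

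The classes also differ in length, and the libraries were selected by size. Single-locus SNORD members had a median length of 84 bases (64 to 791), SNORA members 135 (123 to 272) and SCARNA members 275.5 (125 to 427). Over 137 single-locus tested members the log2 fold change and log2 length correlated with r = -0.20 (rho -0.35), and with r = -0.28 (rho -0.38) without the U3 names, as a description. These values mix class and length. Within classes r was -0.10 for 81 SNORD, -0.15 for 46 SNORA and 0.58 for 10 SCARNA members (rho -0.21, -0.09 and 0.28). The fold change and the mean level correlated with r = 0.07. From 60 to under 100 bases, 12 SNORD members were higher and 9 lower of 65 (median 0.01), beside 13 and 24 of 93 other genes of that length (median -0.20). Without names starting with MIR, the other genes of that length were 11 higher and 14 lower of 48 (median -0.14). From 100 to under 160 bases, 3 of 39 SNORA members were higher and 7 lower (median -0.15), beside 15 and 11 of 75 other genes (median 0.13). From 160 to under 250 bases, 5 of 6 SNORA members were lower and 0 higher (median -0.57), beside 15 lower and 22 higher of 116 other genes (median 0.07). From 250 to under 430 bases 6 of 7 SCARNA members were lower (median -0.62), beside 58 lower and 136 higher of 661 other genes (median 0.12).

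Of 10 box C/D members of 100 to under 160 bases, 1 was higher and 3 were lower (median -0.04). SNORD94, a guide for the U6 RNA of 137 bases, fell from 21.05 ± 3.84 to 13.3 ± 0.940 RPKM (SD, n = 2 each) (-0.71 ± 0.14 on the log2 scale (SE; limma adjusted p = 0.0222)), and its call was lost without knockdown replicate 1 (limma adjusted p = 0.0874). SNORD97 was at 101 and 110.0 RPKM in the controls and 114 and 102 RPKM in the knockdown libraries, with overlapping groups and a log2 fold change of -0.03 that became 0.04 without scaling factors. With the trend on length over all genes subtracted, an alternative chosen after seeing the data, 21 members were higher and 51 lower, and the 10 SCARNA calls remained in number. Whether length, recovery in the library or RNA abundance set these values was not tested.

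**Figure D5:**
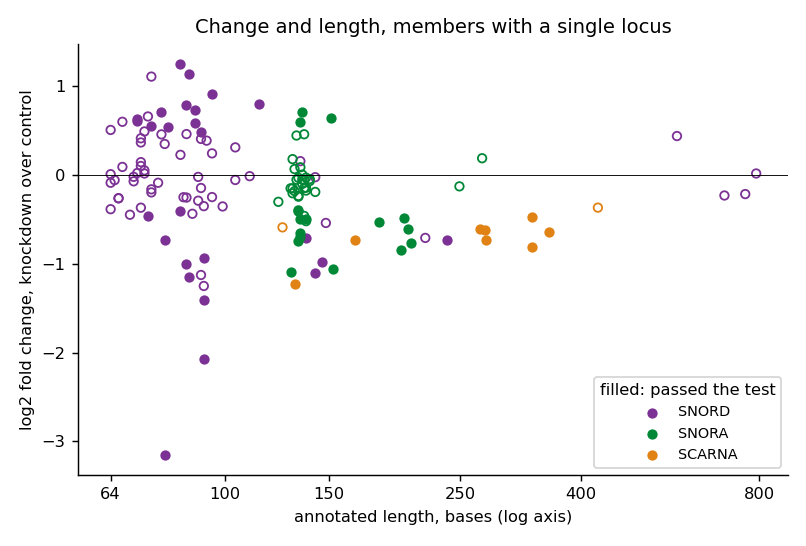
Log2 fold change against annotated length (log axis, bases) for 137 single-locus tested members, filled where the limma test was passed. SCARNA members of 250 bases or more lie below 0, and SNORD members under 100 bases lie on both sides.

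A sequence was found at the same coordinates for 146 of the 150 single-locus members. TGATGA was present in the first 20 bases of 64.8% of 91 SNORD members and CTGA in the last 20 of 92.3%, beside 66.7% and 93.9% of all 147 SNORD names with a sequence. Among SNORD members called higher these were found in 9 and 10 of 12, and among those called lower in 8 and 13 of 13. SNORD14D is 1 of the members without CTGA in that window, as its sequence above shows, and SNORD45A and SNORD45B lack TGATGA in theirs. ACA was found in the last 10 bases of 45 of 46 SNORA members (57 of 62 SNORA names). TGAG, without regard to position and overlap with other motifs, was found in 9 of 9 SCARNA members, 20 of 46 SNORA members and 76 of 91 SNORD members, and in 10 of 13 SCARNA names of any level. These 4 letters thus also occur in most SNORD members.

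The proteins that bind, assemble or trim these RNAs mostly did not pass the test at the RNA level. Of 39 genes of that kind, all tested, 0 were called higher and 1 lower (median log2 fold change -0.08). At an unadjusted p under 0.05, 5 were higher and 11 lower, and limma-voom called 4 higher and 9 lower. The shares of all tested genes were 11.1% and 13.8% by limma, 18.5% and 22.3% unadjusted, and 16.2% and 19.6% by limma-voom. RUVBL1, an ATPase of the complex that assembles box C/D particles, was the 1 call (20.5 ± 0.337 to 17.7 ± 0.0508 RPKM, SD, n = 2 each; log2 fold change -0.27, limma adjusted p = 0.0374). Among the 5 box C/D core proteins, FBL, the methyltransferase fibrillarin, was at 97.2 and 89.5 RPKM in the controls and 120.0 and 112 RPKM in the knockdown libraries (limma adjusted p = 0.0621), and NOP56 and NOP58 had log2 fold changes of -0.19 and -0.22 (limma adjusted p = 0.0755 and 0.0885). The 4 H/ACA core genes had a median of 0.13, with DKC1, the pseudouridine synthase, at 0.03 (limma adjusted p = 0.773) and NHP2 at 0.22 (limma adjusted p = 0.0837). WRAP53, which carries Cajal body RNAs to the body, was at 2.59 and 2.58 RPKM in the controls and 2.13 and 1.78 RPKM in the knockdown libraries and had a log2 fold change of -0.45 ± 0.14 (SE; limma adjusted p = 0.068), and COIL, the Cajal body scaffold, was at 6.18 and 5.89 RPKM in the controls and 7.56 and 7.29 RPKM in the knockdown libraries (0.23, limma adjusted p = 0.0988). In the end-trimming list, the exonuclease gene XRN2 had -0.20 (limma adjusted p = 0.0761), the deadenylase gene PARN -0.07 (limma adjusted p = 0.612) and TOE1, another deadenylase gene, -0.44 (limma adjusted p = 0.0863).

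At the edge of the choice, SNORD116-2, SNORD107 and SCARNA8 lay just inside with mean levels of 5.399, 5.22 and 5.20 RPKM, and SNORD116-4, SNORD82 and SNORD20 just outside with 4.94, 4.71 and 4.71 RPKM. The 13 members that were not tested were all SNORD names, with 2 to 25 reads per library. SNORD107 was among them, at 5.82 and 9.50 RPKM in the controls and 2.10 and 3.48 RPKM in the knockdown libraries. SNORD116-5 was another, at 2.87 and 3.21 RPKM in the controls and 6.63 and 10.1 RPKM in the knockdown libraries. Of all 188 members, 38 names were listed at more than 1 locus and 112 shared a base with a listed exon of another gene.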

How the data were processed

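RNA sequencing of 2 wild-type and 2 HNRNPM-knockdown MHCC97H libraries was analysed. The submitters' processing notes list Trimmomatic 0.36, featureCounts, StringTie 1.3.2, edgeR 3.12.1 and Subread 1.5.1. The aligner, the strand setting of the counting and the use of the molecular identifiers are not given in sources used here. Reads of overlapping and antisense genes may therefore not be separated. The notes give mm9 as the build, a mouse genome, but 219 of 220 single-locus names found once in GENCODE release 29 had the same human GRCh38 coordinates. The authors deposited RPKM values, 1 per gene name. All were whole multiples of 1 read within 0.01, which gave the reads and depths.

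RPKM over TMM factors (0.984, 0.972, 1.03 and 1.02; 30% and 5% trims) was tested as log2(RPKM + 0.1), a scale that understates changes of low genes. The test was limma 3.58.1 in R 4.3.3, trended, with a group term and Benjamini-Hochberg adjusted p. Genes with 2 libraries at the equivalent of 10 reads and 15 reads in all were tested. Residual degrees of freedom were 2 and prior ones 3.56. An exact two-sided permutation of 2 against 2 libraries reaches p = 0.333 at best. The procedure was tested on simulated data.

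A host is a listed gene on the same strand whose span holds the member, the one with the highest mean RPKM where several do. Results of some host genes are not reported here. Named members are the 6 highest SNORD and SNORA names, every SCARNA, the 6 largest called increases and decreases without overlap, the U3, U8 and U13 names, and members of the 4 hosts with most members. A further 19, such as SNORD15B, SNORD94 and the members in RPL13A, were added after values were seen, and others lay next to the level threshold. Other called members, such as SNORA14B, SNORA56 and SNORD56, were also named after values were seen and are not among these 19. Hosts with the same number were ordered by reads. The members and lists were chosen with earlier results of these data known. Alternatives were other pseudocounts, scalings, filters, level thresholds and subsets, limma-voom, the replicate block, each library left out, and a length correction.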

Additional observations from a re-analysis of the deposited data

How the results depend on the processing

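All 64 called members kept their direction in every fit in which they were tested (48 of 48 with the stricter filter). Members called higher and lower were 20 and 44, and stayed within 1.5 times of that with other pseudocounts, scaling factors, limma-voom (15 and 43), the stricter filter (16 and 46), other level thresholds and the length correction. Similar totals did not mean the same members, as limma-voom called 48 of the 64. The others had limma-voom adjusted p from 0.0505 (SNORD96A) to 0.340 (SNORD45A). They included SCARNA1, SNORA5A, SNORA74B, SNORA6, SNORD24, SNORD62B and SNORD12B. Without a filter on low values, with 39306 genes tested, they were 3 and 11 (SNORD 3 and 3, SNORA 0 and 3, SCARNA lower 5), and 1806 genes were called in all against 5032. Of members in no exon of another gene, a smaller set, 8 and 19 were called (SNORD 6 and 6, SNORA lower 7, SCARNA lower 6), and of single-locus members SNORA lower 12. With 1 library left out the counts ran from 5 to 19 higher and from 21 to 33 lower (SNORD higher 5 to 17, lower 11 to 14, SNORA higher 0 to 3, lower 4 to 13, SCARNA lower 4 to 10). The replicate numbers of the labels did not pair the libraries (r = 0.06 over 20221 genes for the deviations of replicate 1), and with the replicate block the counts were 20 and 55. Of the members that were not called, only those among the 72 named ones were checked for sign. Fold changes (log2) turned sign without scaling factors for SCARNA21 (0.0577), SNORA7A (0.0164) and SNORD97 (0.0379). They did so with median-of-ratios factors for SCARNA21 (0.0169), and with the length correction for SNORD3B-2 (-0.0149). With 1 library left out they turned for SCARNA21 (-0.0542 to 0.0408), SNORA7A (-0.12 to 0.0250), SNORD97 (-0.0982 to 0.0467), SNORA16A (-0.31 to 0.0205), SNORD14E (-0.73 to 0.23), SNORD36A (-0.14 to 0.18), SNORD3B-2 (-0.0743 to 0.11) and SNORD57 (-0.17 to 0.37). The cause was not tested. Of 921 alternative values of 72 named members, 753 kept direction and side of the threshold, 114 lost a call and 38 gained one. Depth limits the scarce members, 13 of which had too few reads to be tested.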

Other observations

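Below the level threshold, 144 further names of the 3 classes were listed, of which 34 had enough reads to be tested. Of these, 0 were called higher and 6 lower by limma: SNORA33, SNORA74, SNORA30, SNORA51, SCARNA15 and SNORA25. Among all tested genes 11.1% were called higher and 13.8% lower. At an unadjusted p under 0.05, 2 of the 34 were higher and 12 lower, and limma-voom called 0 higher and 5 lower. SNORA33 was at 5.15 and 4.61 RPKM in the controls and 2.97 and 2.79 RPKM in the knockdown libraries (log2 fold change -0.80, limma adjusted p = 0.00853), and SNORA51 at 2.31 and 2.22 against 1.298 and 1.43 RPKM (-0.75, limma adjusted p = 0.018). Most of these names merge several loci or long listed exons, and the listed exons of SCARNA15 overlap SCARNA4.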
